A study of Mus musculus with 8 samples.

Results

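The interleukin-1 (IL-1) and interleukin-18 (IL-18) system comprises 10 genes here, chosen by name: the ligands Il1a, Il1b and Il18, the soluble antagonist Il1rn, the decoy receptor Il1r2, the binding protein Il18bp, and the receptor chains Il1r1, Il1rap, Il18r1 and Il18rap. They are 10 of the 24405 genes listed in the count tables. IL-1 alpha and IL-1 beta are early alarm cytokines that signal through the receptor encoded by Il1r1 together with the shared accessory chain encoded by Il1rap. Il1rn encodes a ligand that occupies this receptor without signalling, and Il1r2 encodes a receptor that binds IL-1 but lacks a signalling domain. IL-1 beta and IL-18 are made as inactive precursors and cut by caspase-1 in inflammasomes, IL-18 is held in check by its binding protein, and the IL-18 receptor pair is best known from natural killer (NK) cells and T cells, in which IL-18 favours interferon gamma production.

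The study profiled single cells of heart, liver and kidney grafts by Microwell-seq, in which cells and barcoded beads are paired in small wells and the 3′ ends of polyadenylated RNA are counted as unique molecular identifiers (UMIs). The 8 libraries were peripheral blood mononuclear cells (PBMC) of heart, liver and kidney recipients, graft-infiltrating lymphocytes (TIL) of the same 3 organs, and parenchymal cells (PC) of liver and kidney, all taken at day 7. The labels give BALB/c males aged 8 weeks for every library. Per the study's methods, donors were BALB/c mice, recipients were C57Bl6/J mice and no drug against rejection was given. Every library is thus of a fully mismatched graft recipient, and none is of an ungrafted or syngeneic control. Graft tissue was digested with type II collagenase, and TIL were then isolated on a Ficoll-Paque gradient, per the methods. These name no digestion for blood. The part of this handling in differences between tissue and blood was not tested. The methods name 2 recipients for each organ, so libraries of the same organ may share recipients, and they do not say how the recipients were pooled. Each organ and compartment had 1 library, so no difference between organs could be tested, and the p-values over libraries take no account of any shared recipients.

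Cells with at least 500 UMIs were kept, which left 47542 of 80000 barcodes, with 795 to 10000 cells a library and a median of 581 to 1502 UMIs a cell. The tables hold 3418722 to 19171264 UMIs a library. A cell was called a neutrophil from 1 UMI of Csf3r, a macrophage from 1 UMI of Csf1r with none of the Kupffer genes, a Kupffer cell from 1 UMI of Clec4f or Cd5l, a T cell from 1 UMI of a Cd3 chain, and an NK cell from 2 UMIs of Ncr1 and Ly49-family or Klrb1c genes without Cd3. The gates held 5634 neutrophils, 2284 macrophages, 342 Kupffer cells, 18684 T cells and 305 NK cells. The 10207 cells (21.5%) that passed gates of at least 2 lineages were left out as possible doublets or carriers of free RNA, and 9660 cells (20.3%) passed no gate. Only class and library sums over at least 20 cells were used, so neutrophils were described in 6 libraries, NK cells in 6, macrophages and T cells in 8, and Kupffer cells in 2. Any 2 libraries shared between 1 and 600 cell barcodes.

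The organ names of 2 libraries went against their marker genes. Hepatocyte genes (Alb, Apoa1, Ttr, Serpina1c and Apoc3) summed to 294 CPM (UMIs scaled to the same total, for each sum) in the library labelled heart TIL and were all at 0 in the library labelled liver TIL, whereas they reached 189 CPM in liver PC. Cardiomyocyte genes summed to 118 CPM in the library labelled liver TIL and to 23.1 CPM in the library labelled heart TIL. The 7 NK marker genes summed to 4402 to 7618 CPM in NK cells, and the 6 Kupffer genes to 3116 and 3932 CPM in Kupffer cells against at most 195 CPM in macrophages. Both lists include the genes of their own gates (Ncr1, Klrb1c, Klra8 and Klra4 for NK cells, Clec4f and Cd5l for Kupffer cells). Clec4f and Cd5l were at 0 in macrophages by the gate, so these sums were in part set by the gates. The 8 neutrophil genes summed to 20561 to 219798 CPM in neutrophils, 198.8 to 176560 CPM in macrophages and 85.2 to 158102 CPM in T cells, so that these ranges overlapped between libraries. Csf3r was at 0 in each T cell sum because cells that passed both gates were left out. The 8 macrophage genes summed to 16432 to 31840 CPM in macrophages, 7384 to 19203 CPM in neutrophils and 1724 to 13407 CPM in T cells. The macrophage and neutrophil ranges thus overlapped between libraries, although macrophages were higher within each of the 6 libraries with both. These genes include the macrophage gate gene Csf1r, which was at 0 in neutrophils because cells that passed both gates were left out. The order within libraries was thus in part set by the gates.

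The members lie on 5 chromosomes of GRCm38, the build of the tables (positions from GENCODE M21, all protein coding). Il1r2, Il1r1, Il18r1 and Il18rap follow each other on the plus strand of chromosome 1 between 40074079 and 40551705. On chromosome 2, Il1rn lies at 24336853 to 24351494 on the plus strand, and Il1a and Il1b lie together on the minus strand at 129299610 to 129309972 and 129364570 to 129371139. Il18bp is on chromosome 7 (102014885 to 102018690, minus strand), Il18 on chromosome 9 (50554827 to 50581840, plus strand) and Il1rap on chromosome 16 (26581704 to 26730117, plus strand). Il1r1 had no row in 5 libraries and Il1a none in liver PBMC and kidney PBMC, which was taken as a count of 0.

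Summed over all cells of all libraries, Il1b had 69549 UMIs, Il1r2 21785, Il18bp 10524 and Il1rn 6874. The order differed between libraries. Heart PBMC alone held 14338 of the Il1r2 UMIs, and in kidney PC and kidney TIL Il18bp (138 and 149 UMIs) exceeded Il1b (14 and 30 UMIs). Il18r1, Il18, Il18rap and Il1a had 1713, 1708, 1667 and 1083 UMIs, Il1rap 527 and Il1r1 only 44. Single-lineage neutrophils held 21.4% of the Il1b UMIs, T cells 23.5%, cells of at least 2 lineages 31.7% and ungated cells 17.8%.

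**Figure D1:**
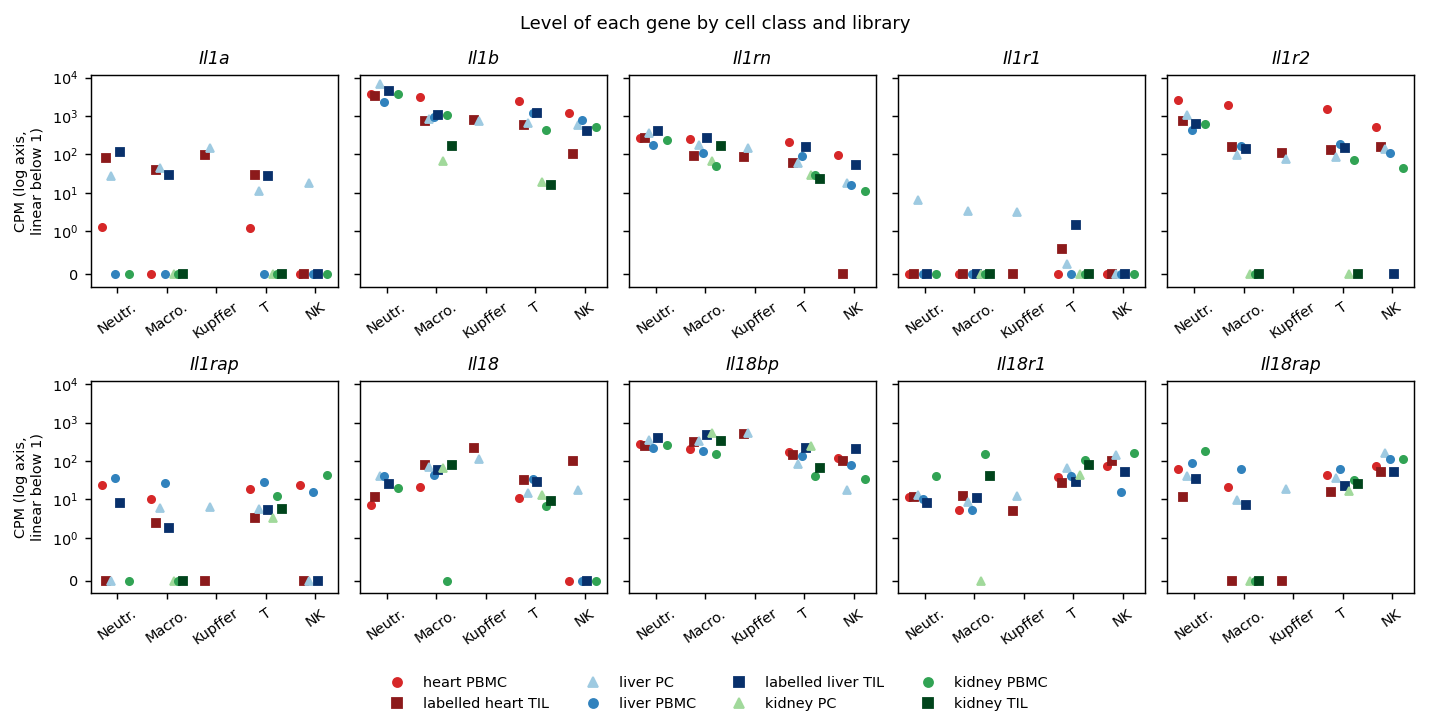
Level of each of the 10 members (y axis, CPM of summed UMIs, log scale, linear below 1) in neutrophils, macrophages, Kupffer cells, T cells and NK cells, with 1 point per library. Il1b is highest in neutrophils (2354 to 6674 CPM), and its T cell values range from 15.7 to 2412 CPM.

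Il1b, the inflammasome-dependent ligand, was highest in neutrophils. Neutrophils had 3786, 2354 and 3793 CPM of Il1b in heart, liver and kidney PBMC, 3371 and 4597 CPM in the libraries labelled heart TIL and liver TIL, and 6674 CPM in liver PC (95% interval 6265 to 7102, counting error only, since UMIs of 1 library are not independent animals). Macrophages had 3088, 949 and 1088 CPM in heart, liver and kidney PBMC, 729, 1076 and 162 CPM in the libraries labelled heart, liver and kidney TIL, and 813 and 66.3 CPM in liver and kidney PC. Neutrophils lay above macrophages in each of the 6 libraries with both classes, from 1.23-fold in heart PBMC (1.13 to 1.33) to 8.20-fold in liver PC (7.5 to 8.98), although the 2 ranges overlapped because of heart PBMC macrophages. In edgeR's quasi-likelihood test over 6 libraries with the library as a block, Il1b rose in neutrophils by 1.94 on the log2 scale (SE 0.36, Benjamini-Hochberg adjusted p = 0.0281). This call was lost when any of 3 libraries was left out, at an adjusted p of 0.0726 by edgeR without the library labelled heart TIL, 0.0820 without that labelled liver TIL and 0.0726 without kidney PBMC. It was also lost with 2 UMIs of the gate genes (2.94, edgeR adjusted p = 0.0765) and after thinning to 500 UMIs (1.85, edgeR adjusted p = 0.0678).

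T cells, which are not known as a source of IL-1 beta, also held Il1b UMIs. Their level was 2412, 1176 and 442 CPM in heart, liver and kidney PBMC, 593, 1213 and 15.7 CPM in the libraries labelled heart, liver and kidney TIL, and 662 and 19.8 CPM in liver and kidney PC. Neutrophils exceeded T cells of the same library 1.57- to 10.1-fold in 6 of 6 libraries, with no interval reaching 1. Macrophages exceeded T cells in 5 of 8 libraries by these intervals and were below them in liver PBMC (0.807-fold, 0.699 to 0.932) and in the library labelled liver TIL (0.887-fold, 0.814 to 0.965). At least 1 Il1b UMI was found in 49.4 to 90.6% of neutrophils, at median depths of 620 to 1109 UMIs, and in 1.03 to 79.7% of T cells, at median depths of 584 to 1428 UMIs. After each cell was thinned to 500 UMIs the shares were 40.4 to 80.3% and 0.826 to 65.5%. The lowest T cell shares were those of kidney TIL and kidney PC, at median depths of 670 and 584 UMIs, and the highest was that of heart PBMC, at 779 UMIs.

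The UMIs of each member were divided by those of S100a8 and S100a9, which encode the abundant cytosolic calgranulins of neutrophils and were found in every class. Whether these UMIs came from neutrophils in the other classes was not tested. In neutrophils, Il1b had 21.3, 18.1 and 25.7 UMIs per 1000 S100a8 and S100a9 UMIs in heart, liver and kidney PBMC. The same quotient in neutrophils was 142 and 256 in the libraries labelled heart TIL and liver TIL and 131 in liver PC. Tissue neutrophils thus had more Il1b per calgranulin UMI than blood neutrophils, while calgranulin UMIs made up 1.79 to 5.09% of their RNA against 13.0 to 17.8% in blood. In macrophages calgranulin UMIs made up 14.5, 5.57 and 3.22% in heart, liver and kidney PBMC. Macrophages of the libraries labelled heart TIL and liver TIL had 0.489 and 0.398%, and those of liver PC 0.627%. A class with less calgranulin RNA has a higher quotient at the same CPM. Within a library the quotient hardly differed between neutrophils and macrophages. The macrophage value was 0.943 to 1.31 times the neutrophil value in the 6 libraries, and no interval excluded 1. The T cell value was 0.701 to 0.880 times the neutrophil value, below 1 by its interval in 6 of 6 libraries, and the Kupffer cell value was 1.19 times (library labelled heart TIL) and 1.09 times (liver PC) with both intervals holding 1. In these cells the part of neutrophil RNA in the macrophage level of Il1b was not tested.

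**Figure D2:**
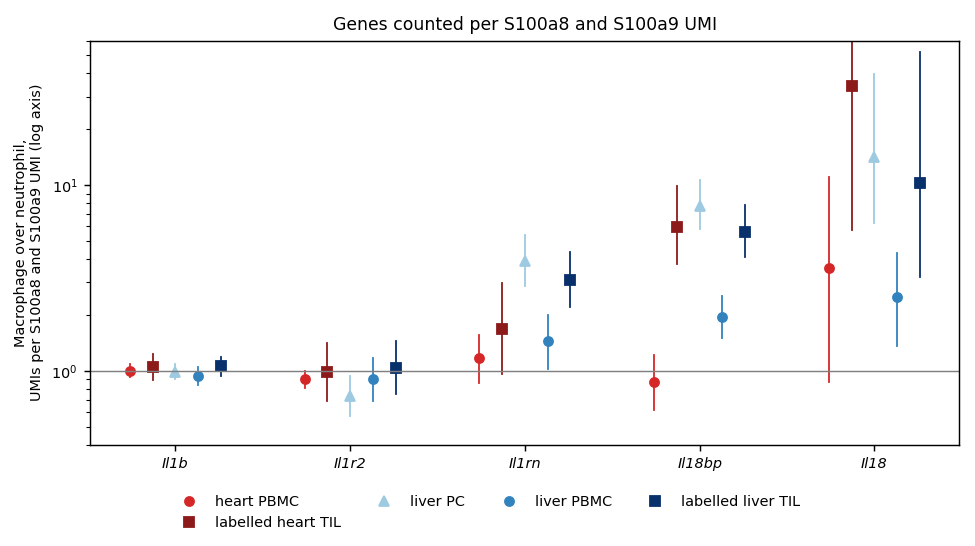
UMIs of Il1b, Il1r2, Il1rn, Il18bp and Il18 per S100a8 and S100a9 UMI in macrophages, divided by the neutrophil value of the same library (y axis, ratio, log scale, clipped at 60). There is 1 point per library with its exact 95% interval, and kidney PBMC is left out. Il1b lies close to 1 throughout, whereas Il18 reaches 34.2 (5.71 to 1392, from 1 neutrophil UMI) in the library labelled heart TIL.

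Il1a, the ligand that is active without caspase-1, was found in 3 tissue libraries and hardly in blood or in kidney tissue. Neutrophils had 79.7 and 117 CPM in the libraries labelled heart TIL and liver TIL and 26.9 CPM in liver PC. Macrophages had 40.1, 30.1 and 45.0 CPM there, and Kupffer cells 96.1 CPM in the library labelled heart TIL and 148 CPM in liver PC. In blood, 3 UMIs were found in the neutrophils of heart PBMC (1.34 CPM, 0.276 to 3.91) and none in those of liver or kidney PBMC, and blood macrophages were at 0, a count that allows up to 15.5, 8.02 and 148 CPM in heart, liver and kidney (3 counts of the sum). Macrophages and T cells of the kidney TIL and PC libraries were also at 0, which allows up to 2.78 and 9.92 CPM in the T cells. Kupffer cells exceeded macrophages 2.40-fold (1.17 to 4.99) in the library labelled heart TIL and 3.29-fold (2.17 to 4.98) in liver PC.

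Il18, the second precursor cut by caspase-1, was highest in Kupffer cells, the resident macrophages of liver sinusoids. These had 212 CPM (153 to 287) in the library labelled heart TIL and 114 CPM (79.6 to 157) in liver PC, which is 2.65-fold (1.63 to 4.34) and 1.62-fold (1.06 to 2.43) the level of macrophages. Macrophages had 20.7, 42.8 and 0 CPM in heart, liver and kidney PBMC, 80.2, 56.7 and 81.1 CPM in the libraries labelled heart, liver and kidney TIL, and 70.2 and 66.3 CPM in liver and kidney PC. The values of kidney TIL and kidney PC rest on 2 and 1 UMIs, and the count of 0 in kidney PBMC allows up to 148 CPM. Neutrophils had 7.13 to 40.3 CPM and T cells 6.85 to 33.5 CPM. Il18 differed from Il1b in its quotient to calgranulin RNA. Per S100a8 and S100a9 UMI its macrophage value exceeded the neutrophil value by its interval in 4 of 6 libraries. The highest was 34.2-fold (5.71 to 1392) in the library labelled heart TIL, from 32 macrophage UMIs and 1 neutrophil UMI. Calgranulin UMIs made up 0.489% of macrophage RNA and 2.38% of neutrophil RNA in that library. In the edgeR test of neutrophils against macrophages, the difference in Il18 was -0.59 on the log2 scale (SE 0.31, adjusted p = 0.238), which did not pass.

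Il1rn, the receptor antagonist, was found in neutrophils and macrophages alike. Neutrophils had 273, 181 and 243 CPM in heart, liver and kidney PBMC, 262 and 399.7 CPM in the libraries labelled heart TIL and liver TIL, and 363 CPM in liver PC. Macrophages had 259, 112 and 49.4 CPM in heart, liver and kidney PBMC, 90.2, 273 and 162 CPM in the libraries labelled heart, liver and kidney TIL, and 174 and 66.3 CPM in liver and kidney PC. The neutrophil level was higher in each of the 6 shared libraries, by the interval of the ratio in 4 of them, but the ranges overlapped. In edgeR's test Il1rn rose in neutrophils by 0.88 on the log2 scale (SE 0.16, adjusted p = 0.000135). Per calgranulin UMI, macrophages exceeded neutrophils by their interval in 3 of 6 libraries. These were liver PBMC (1.45-fold), the library labelled liver TIL (3.08-fold) and liver PC (3.90-fold). Macrophages had less calgranulin RNA than neutrophils in these libraries, which raises the quotient, and their CPM of Il1rn was lower. In heart PBMC (1.17-fold), the library labelled heart TIL (1.67-fold) and kidney PBMC (0.930-fold) the interval held 1.

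Il1r2, the decoy receptor, set heart PBMC apart from the other libraries. Its neutrophils had 2634 CPM (2567 to 2702), whereas those of liver and kidney PBMC had 442 and 629 CPM, those of the libraries labelled heart TIL and liver TIL 752 and 608 CPM, and those of liver PC 1082 CPM. The heart over liver ratio among blood neutrophils was 5.95 (5.53 to 6.41) for Il1r2, 1.61 (1.55 to 1.67) for Il1b and 1.51 (1.32 to 1.72) for Il1rn. The heart over kidney ratio was 4.19 (2.95 to 6.17) for Il1r2 and 0.998 (0.863 to 1.16) for Il1b. With 1 library each, this is a difference between libraries and not between organs. T cells of heart PBMC also had the highest Il1r2, at 1566 CPM, against 0 to 192 CPM in the other 7 libraries. Macrophages had 1927, 171 and 0 CPM in heart, liver and kidney PBMC, 153, 140.1 and 0 CPM in the libraries labelled heart, liver and kidney TIL, and 97.9 and 0 CPM in liver and kidney PC. Neutrophils were above macrophages in 6 of 6 libraries, and the edgeR estimate was 2.05 on the log2 scale (SE 0.47, adjusted p = 0.0515), just short of the threshold. It passed under DESeq2 (2.29, adjusted p = 1.38e-06), and by edgeR without heart PBMC (2.49, adjusted p = 0.0104) or without liver PC (1.64, adjusted p = 0.0141).

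Il18bp, which encodes the secreted binding protein of IL-18, was the member most evenly spread over the myeloid classes. Neutrophils had 284, 223 and 264 CPM in heart, liver and kidney PBMC, 251 and 391 CPM in the libraries labelled heart TIL and liver TIL, and 343 CPM in liver PC. Macrophages had 202, 187 and 148 CPM in blood, 308, 486 and 324 CPM in the libraries labelled heart, liver and kidney TIL, and 327 and 530.0 CPM in liver and kidney PC. The kidney macrophage values rest on 3 UMIs in PBMC and 8 each in TIL and PC. Between TIL and blood macrophages the difference was 0.83 on the log2 scale (SE 0.42, edgeR adjusted p = 0.245), which did not pass. Kupffer cells had 496 and 549 CPM, 1.61-fold (1.22 to 2.12) and 1.68-fold (1.39 to 2.01) the macrophage level of the same library. Neutrophils and macrophages differed by 0.23 on the log2 scale (SE 0.15, edgeR adjusted p = 0.393), higher in neutrophils in 4 of 6 libraries.

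Among the receptor chains, Il1r1, which carries the signal of IL-1, was at the limit of detection. Its 44 UMIs came from 3 libraries, and gated neutrophils held 1, macrophages 4, Kupffer cells 1 and T cells 11. In the macrophages of the library labelled liver TIL the count of 0 allows up to 5.32 CPM. Il1rap, the shared accessory chain, had a median of 4.16 CPM in neutrophils, 2.14 CPM in macrophages, 5.54 CPM in T cells and 7.84 CPM in NK cells, with a range of 0 to 44.1 CPM over all of these.

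Il18r1, the binding chain of the IL-18 receptor, lay mainly in T cells, which held 60.6% of its UMIs. T cells had 38.2, 41.8 and 106 CPM in heart, liver and kidney PBMC, 27.1, 28.2 and 79.7 CPM in the libraries labelled heart, liver and kidney TIL, and 66.5 and 43.0 CPM in liver and kidney PC. Kidney blood and kidney TIL were the highest T cell values. NK cells had 72.9, 15.7 and 166 CPM in heart, liver and kidney PBMC, 102 and 51.9 CPM in the libraries labelled heart TIL and liver TIL, and 141 CPM in liver PC, from 1 to 15 UMIs each. The T cell value of Il18r1 per S100a8 and S100a9 UMI was 4.56- to 39.6-fold the neutrophil value, above 1 by its interval in 6 of 6 libraries.

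Il18rap, the accessory chain that completes the IL-18 receptor, was found in NK cells, T cells and neutrophils. NK cells had 72.9, 109.7 and 110.4 CPM in heart, liver and kidney PBMC, 51.1 and 51.9 CPM in the libraries labelled heart TIL and liver TIL (1 UMI each), and 159 CPM in liver PC. T cells had 43.2, 61.3 and 32.5 CPM in heart, liver and kidney PBMC, 15.6, 22.1 and 25.0 CPM in the libraries labelled heart, liver and kidney TIL, and 36.1 and 16.5 CPM in liver and kidney PC. Neutrophils had 63.7, 88.7 and 183 CPM in heart, liver and kidney PBMC, 11.4 and 33.3 CPM in the libraries labelled heart TIL and liver TIL, and 40.3 CPM in liver PC. The neutrophil values rest on 1 and 4 UMIs in the libraries labelled heart TIL and liver TIL, 6 in liver PC and 9 in kidney PBMC. TIL over blood was 0.179-fold (0.00449 to 1.01) in neutrophils of the heart pair and 0.376-fold (0.101 to 0.980) in those of the liver pair. Macrophages had 20.7, 61.5 and 0 CPM in blood and 0 to 9.53 CPM in tissue. Neutrophils were above macrophages in 6 of 6 libraries, but by the interval of the ratio in only 2 of 6. Il18rap passed the filter on low counts through neutrophils, of which 4 of 6 sums reached its minimum against 1 of 6 macrophage sums, so its test between these classes is not given.

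The comparison of neutrophils with macrophages asked which members mark either myeloid class. Of the 4744 genes tested, 8.01% rose and 3.82% fell in neutrophils, and 1128 had an unadjusted p under 0.05 by edgeR. Of the 10 members 8 passed the filter on low counts, with Il1r1 and Il1rap left untested. Without Il18rap, which passed through neutrophils, 2 of 7 (Il1b and Il1rn) rose and 0 fell by edgeR, 3 were higher and 0 lower by DESeq2, and 3 had an unadjusted p under 0.05 by edgeR. The neutrophil marker genes summed to 20561 to 219798 CPM in neutrophils and to 198.8 to 176560 CPM over the 8 macrophage sums.

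The sequences upstream of Il1b, Il1rn and Il18rap are shown as those of an agonist, its antagonist and a receptor chain. Their levels were higher in neutrophils than in macrophages in 6 of 6 libraries, as was that of Il1r2. For Il18rap, which passed the filter on low counts through neutrophils, this order is a description only. The interval of neutrophils over macrophages lay above 1 in 6 of 6 libraries for Il1b and Il1r2, 4 for Il1rn and 2 for Il18rap. Each sequence is the 250 bases before the RefSeq start on GRCm38.p6, written 5′ to 3′ along the gene, with matches to 1 of 6 searched motifs in capitals. The windows are chr2:129371140-129371389 on the minus strand for Il1b, chr2:24336610-24336859 on the plus strand for the first of 3 starts of Il1rn, and chr1:40515112-40515361 on the plus strand for Il18rap. Capitals mark a TATA box (TATAAA) for Il1b, an AP-1 motif and a kappaB motif for Il1rn, and a pair of PU.1 cores for Il18rap. The window of Il1r2 and those of the other starts of Il1rn held 0 matches and are not shown.
Il1b: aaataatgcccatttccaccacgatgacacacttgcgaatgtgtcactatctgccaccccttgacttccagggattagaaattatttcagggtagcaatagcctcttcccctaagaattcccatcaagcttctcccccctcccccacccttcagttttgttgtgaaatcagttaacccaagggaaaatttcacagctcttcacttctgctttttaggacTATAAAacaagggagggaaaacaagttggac
Il1rn: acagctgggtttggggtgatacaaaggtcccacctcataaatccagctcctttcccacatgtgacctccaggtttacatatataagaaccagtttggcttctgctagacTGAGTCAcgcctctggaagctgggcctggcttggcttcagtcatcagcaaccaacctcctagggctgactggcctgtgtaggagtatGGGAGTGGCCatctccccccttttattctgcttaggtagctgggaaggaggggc
Il18rap: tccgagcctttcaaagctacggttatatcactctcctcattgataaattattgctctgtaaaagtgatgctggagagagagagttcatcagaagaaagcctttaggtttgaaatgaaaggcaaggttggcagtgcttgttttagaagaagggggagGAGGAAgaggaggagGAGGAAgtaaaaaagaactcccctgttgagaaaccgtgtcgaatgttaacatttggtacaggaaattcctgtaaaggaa
The 6 motifs were searched on both strands in 32851 RefSeq windows of 250 bases. A TATA box (TATAAA) was found in 12.4% of them, a kappaB motif (GGGA, any 4 bases, CC) in 17.6%, an AP-1 motif (TGANTCA) in 6.75%, a PU.1 core (GAGGAA) in 23.3%, a C/EBP motif (TTGCNNAA) in 9.56% and a paired interferon response core (GAAA, any 2 bases, GAAA) in 2.98%. No motif was shared by all 3 windows. Over the 15 windows of the 10 members, TATA boxes and PU.1 cores matched 3 members each, kappaB, AP-1 and C/EBP motifs 2 each, and the interferon response core 0. A match is a run of letters and not a measured site.

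The balance of agonists to antagonist was expressed as the UMIs of Il1a and Il1b over those of Il1rn. UMIs are counted at the 3′ end of a transcript and are not scaled by its length. In neutrophils the ratio was 13.9, 13.0 and 15.6 in heart, liver and kidney PBMC, 13.2 and 11.8 in the libraries labelled heart TIL and liver TIL, and 18.5 in liver PC. The 6 intervals all overlapped, the narrowest being 12.8 to 15.1 in heart PBMC, and the median ratio was 13.5. In macrophages it was 11.9 and 8.45 in heart and liver PBMC, 8.53 and 4.05 (3.39 to 4.87) in the libraries labelled heart TIL and liver TIL, and 4.93 (4.23 to 5.77) in liver PC. The intervals of the library labelled liver TIL and of liver PC lay below those of neutrophils in the same libraries, which began at 8.77 and 14.0. The kidney macrophage ratios, 22 in PBMC and 1 in both TIL and PC, rest on 1 to 4 UMIs of Il1rn. Kupffer cells had ratios of 10.1 (6.14 to 17.8) and 6.24 (4.56 to 8.71). T cells of kidney TIL and PC had ratios of 0.680 (0.345 to 1.31) and 0.667 (0.195 to 2.10), against 7.72 to 15.2 in T cells of the other 6 libraries. The 8 neutrophil marker genes summed to 85.2 and 145 CPM in T cells of kidney TIL and PC and to 5738 to 158102 CPM in those of the other 6. Their part in these ratios was not tested.

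Agonist UMIs also exceeded those of the decoy receptor. In neutrophils the ratio of Il1a and Il1b to Il1r2 was 1.44 (1.39 to 1.49) in heart PBMC and 5.32 and 6.03 in liver and kidney PBMC. It was 4.59 and 7.75 in the libraries labelled heart TIL and liver TIL and 6.19 in liver PC. Heart PBMC again stood below the rest in macrophages (1.60, against 5.03 to 8.77 in the other 4 libraries with Il1r2 UMIs) and in T cells (1.54, against 4.64 to 8.19 in 5). Signalling receptor UMIs were few beside those of the decoy. The ratio of Il1r1 to Il1r2 was 0.0354 (0.00948 to 0.0932) in macrophages of liver PC and 0.00621 in its neutrophils, and at most 0.0417 in any of these classes.

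The IL-18 ratio ran the other way. Il18 had fewer UMIs than Il18bp in all neutrophil, macrophage, Kupffer and T cell sums. The ratio of Il18 to Il18bp was 0.0251 to 0.179 in neutrophils and 0.0526 to 0.245 in T cells. In macrophages it was 0.103 and 0.229 in heart and liver PBMC, 0.260, 0.117 and 0.250 in the libraries labelled heart, liver and kidney TIL, whereas PC of liver and kidney had 0.214 and 0.125. Kupffer cells had 0.429 (0.291 to 0.621) in the library labelled heart TIL, the highest value of these classes, and 0.207 (0.140 to 0.298) in liver PC, where macrophages had 0.214. The interval of the kidney TIL macrophages, from 2 UMIs of Il18, reached 1.25, and that of the kidney PBMC macrophages, from 0 UMIs of Il18 and 3 of Il18bp, reached 2.42.

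**Figure D3:**
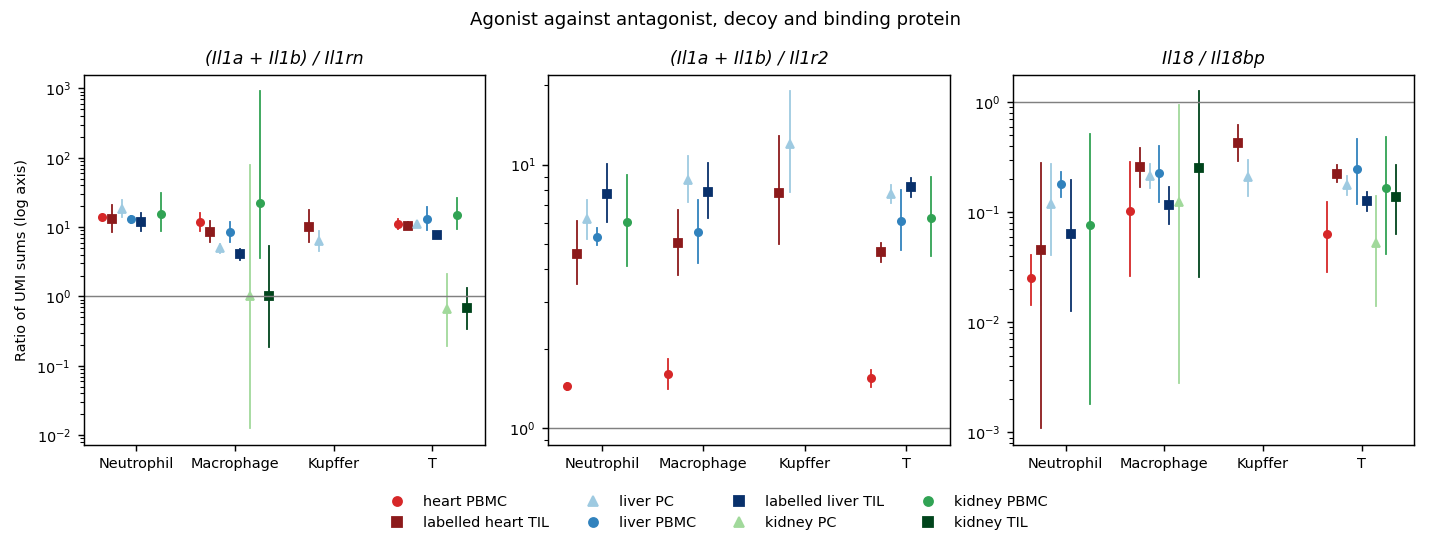
Ratios of summed UMIs (y axis, log scale) by cell class, with 1 point per library and exact 95% intervals: Il1a and Il1b over Il1rn, Il1a and Il1b over Il1r2, and Il18 over Il18bp. The neutrophil ratios to Il1rn lie between 11.8 and 18.5, and the ratios of Il18 to Il18bp lie under 1 in neutrophils, macrophages, Kupffer cells and T cells.

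NK cells were compared with T cells within 6 libraries, since both are known carriers of the IL-18 receptor. Of 5028 genes, edgeR called 1.93% higher and 7.14% lower in NK cells, a split of 97 against 359 genes that became 94 against 92 under DESeq2 and 120 against 265 with RLE size factors, and the median over all genes was -0.17 on the log2 scale. By edgeR 915 of the 5028 genes had an unadjusted p under 0.05. Of the 6 members tested, Il18rap was higher in NK cells in 6 of 6 libraries, from 31 NK cell UMIs. It passed the filter through NK cells, with 6 of 6 sums at its minimum against 1 of 6 T cell sums, so its test is not given. Il18r1 differed by 0.54 (SE 0.36, edgeR adjusted p = 0.465), higher in NK cells in 5 of 6 libraries. Il1b (-0.89), Il1rn (-2.0), Il1r2 (-1.24) and Il18bp (-0.98) fell, the last at an edgeR adjusted p of 0.0483. Under RLE the first 3 of these stayed lower, under DESeq2 only Il1rn did (adjusted p = 0.0447), and by edgeR with 2 UMIs of the gate genes 0 of the 4 did. Il1b, Il1rn, Il1r2 and Il18bp rest on 193, 8, 44 and 20 NK cell UMIs. In the same order, the interval of the NK to T cell ratio lay below 1 in 4, 0, 1 and 0 of 6 libraries. Il1r2 was higher in NK cells in 2 of 6 libraries and Il1b in 1 of 6. Il1r2 was lost without heart PBMC (-0.59, edgeR adjusted p = 0.43), Il18bp without heart PBMC, the library labelled heart TIL, liver PC or liver PBMC (edgeR adjusted p 0.066 to 0.164), and Il1r2 reversed to 0.77 among cells of at least 1000 UMIs. The 8 neutrophil marker genes were lower in NK cells than in T cells in each of the 6 libraries, at 2387 to 78207 against 5738 to 158102 CPM. The 8 macrophage marker genes were also lower in NK cells in each of the 6, at 1225 to 9232 against 1724 to 13407 CPM. The part of either in these 4 falls was not tested.

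Graft-infiltrating cells were compared with blood cells by class. The handling of tissue, as given above, goes with the compartment, and its part was not tested. For macrophages (3 TIL against 3 PBMC libraries), 4.32% of 3516 genes were higher and 5.12% lower in TIL by edgeR. An unadjusted p under 0.05 was reached by 809 of the 3516. Of the 5 members tested none was called, 0 reached an unadjusted p under 0.05, and DESeq2 called 0. With the organ as a block, edgeR called 6.8% of 4337 genes higher and 8.19% lower, and Il1b (-1.50, SE 0.43, adjusted p = 0.00573) and Il1r2 (-2.23, SE 0.57, adjusted p = 0.00198) fell. The 8 neutrophil marker genes summed to 176560, 61223 and 35248 CPM in macrophages of heart, liver and kidney PBMC and to 5468, 4252 and 446 CPM in those labelled heart, liver and kidney TIL, and their part in these falls was not tested. Il1a was not tested here, with 16, 17 and 0 UMIs in the libraries labelled heart, liver and kidney TIL and 0 in blood macrophages. The pairs behind these 2 values were unequal. Il1b of TIL macrophages was 0.236-fold (0.205 to 0.272) that of blood in the heart pair, 1.13-fold (0.993 to 1.30) in the liver pair and 0.149-fold (0.0374 to 0.439) in the kidney pair, and Il1r2 was 0.0793-fold (0.0595 to 0.104) in the heart pair, 0.818-fold (0.581 to 1.16) in the liver pair and listed at 0 on both sides in the kidney pair. The block takes the organ names as labelled, including those of the 2 TIL libraries whose markers went against them. With these 2 exchanged, chosen after seeing the data, Il1b of TIL macrophages was 0.349-fold (0.311 to 0.391) that of heart PBMC and 0.768-fold (0.655 to 0.899) that of liver PBMC. Il1r2 was then 0.0727-fold (0.0563 to 0.0929) and 0.893-fold (0.618 to 1.29).

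For neutrophils (2 against 3 libraries, kidney TIL having too few), edgeR called 6.28% of 1862 genes higher and 8.49% lower in TIL. An unadjusted p under 0.05 was reached by 623 of the 1862. Of the 5 members tested 0 were called by edgeR and 0 by DESeq2, and 1 had an unadjusted p under 0.05. This was Il18rap, which passed the filter only through blood, with 2 of 3 blood and 0 of 2 TIL sums at its minimum, so its test is not given. With the organ as a block, in which kidney PBMC had no partner, edgeR called 12.2% of 2538 genes higher and 13.2% lower. Il18rap passed this filter only through blood and Il1a only through TIL, so neither test is given, and the 4 other members tested were not called. The neutrophil marker genes also stood lower in the neutrophils of TIL, at 27403 and 20561 against 144496 to 219798 CPM in blood, and their part in the difference of Il18rap was not tested. Il1b differed by -0.04 (SE 0.41, edgeR adjusted p = 0.957) and Il1rn by 0.21 (SE 0.40, edgeR adjusted p = 0.748). The labelled pairs were unequal. Il1b of TIL neutrophils was 0.891-fold that of blood for heart, with an interval that held 1, and 1.95-fold (1.78 to 2.13) for liver. Il1rn was 0.960-fold (0.604 to 1.45) and 2.21-fold (1.59 to 2.99). The TIL libraries were also exchanged, chosen after seeing the data. Il1b was then 1.21-fold (1.11 to 1.32) that of heart PBMC and 1.43-fold (1.27 to 1.61) that of liver PBMC. Il1rn was 1.47-fold (1.07 to 1.97) and 1.45-fold (0.904 to 2.21). Il1a did not pass the filter of the fit without the block, with 7 and 14 UMIs in the TIL neutrophils against 3 in all blood neutrophils.

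For T cells (3 against 3 libraries), edgeR called 0.0741% of 6750 genes higher and 0% lower in TIL. An unadjusted p under 0.05 was reached by 1056 of the 6750. Of the 8 members tested edgeR called 0, and 2 had an unadjusted p under 0.05, Il1rap and Il18rap (-1.35, SE 0.39, edgeR adjusted p = 0.174). DESeq2 called 1, Il1rap. Il1rap passed the filter only through blood, with 3 of 3 blood and 0 of 3 TIL sums at its minimum, so its test is not given. With the organ as a block, edgeR called 5.69% of 7557 genes higher and 8.5% lower. Il18rap (-1.36, SE 0.36, adjusted p = 0.0264) fell in this edgeR fit. The 8 neutrophil marker genes summed to 158102, 82277 and 26107 CPM in T cells of heart, liver and kidney PBMC and to 6546, 5738 and 85.2 CPM in those labelled heart, liver and kidney TIL, and their part in this fall and in the level of Il1rap was not tested. Il1a of T cells had 147, 113 and 0 UMIs in the libraries labelled heart, liver and kidney TIL against 1, 0 and 0 in blood, and passed the filter of that fit only through TIL, so its test is not given. Il1rap of T cells was 19.5 CPM on average in blood and 4.77 CPM in TIL. The blocked call for Il18rap goes with ratios of TIL to blood of 0.362 (0.240 to 0.556), 0.360 (0.224 to 0.603) and 0.769 (0.412 to 1.46) in the heart, liver and kidney pairs, and Il18r1 had 0.709, 0.674 and 0.750, each with an interval that held 1.

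**Figure D4:**
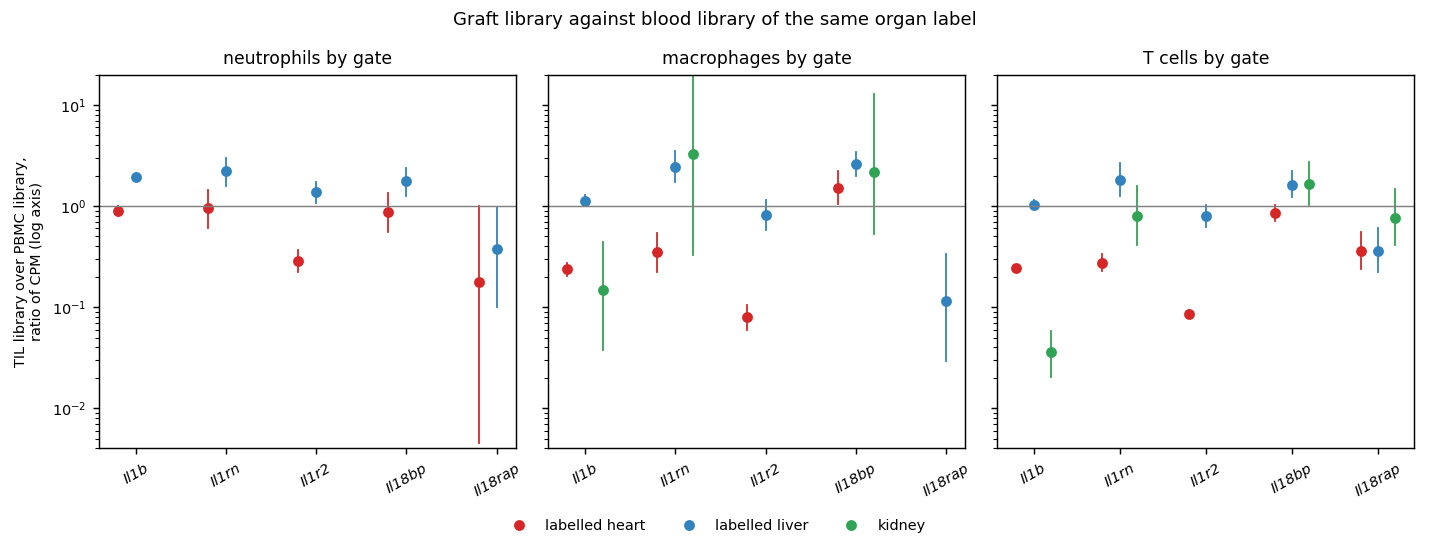
Ratio of TIL to PBMC CPM (y axis, log scale) for Il1b, Il1rn, Il1r2, Il18bp and Il18rap in neutrophils, macrophages and T cells. There is 1 point per organ as labelled, with its exact 95% interval, and ratios with 0 UMIs on a side are not drawn. Il1rn of macrophages lies at 0.348 for heart and 2.43 for liver, and Il18rap of T cells lies between 0.360 and 0.769.

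The wider pathway was described from lists of genes. Their counts at an unadjusted p under 0.05 stand beside the edgeR numbers over all genes given above for each comparison. Of 9 relatives of the IL-1 family, 4 were listed in the tables (Il33, Il1rl1, Il1rl2 and Sigirr), and 0 passed the filter in the comparison of neutrophils with macrophages. Of 12 inflammasome and processing genes, 7 were tested between neutrophils and macrophages and 2 rose, the sensor Nlrp3 (1.13, SE 0.29, edgeR adjusted p = 0.00611) and the caspase gene Casp4 (0.65, SE 0.19, edgeR adjusted p = 0.0151). The list's median was 0.21 against 0.00 over all genes. Of 12 signalling genes 9 were tested and 0 were called by edgeR or DESeq2, 1 having an unadjusted p under 0.05, and their median was 0.22. Of 10 genes known to respond to IL-1, 9 were tested, of which Cxcl1, Cxcl3 and Ptgs2 passed the filter through neutrophils. Of the 6 others, edgeR called 4 higher and 1, the acute phase gene Saa3, lower, and DESeq2 called 5 higher and 1 lower, beside the 8.01% and 3.82% of all genes that edgeR called. Their median was 1.56. The neutrophil-attracting chemokine gene Cxcl2 rose by 2.68 and was higher in 6 of 6 libraries. The related Cxcl1 had a mean of 24.6 CPM in neutrophils and 2.78 CPM in macrophages, higher in 4 of 6 libraries, and Cxcl3 had 44.3 and 6.91 CPM, higher in 3 of 6. Several of this list, such as Lcn2, are also known neutrophil genes. Of 7 genes tied to IL-18 responses 2 were tested, the granzyme gene Gzmb and Ifng. DESeq2 called 0 of them, and edgeR did not call Gzmb. Ifng passed the filter through macrophages, with 2 of 6 sums at its minimum against 1 of 6 neutrophil sums, so its test is not given. Its mean was 53.4 CPM in neutrophils, from 57 UMIs, and 23.0 CPM in macrophages, higher in neutrophils in 4 of 6 libraries. T cell marker genes were higher in neutrophils than in macrophages in 5 of 6 libraries, at 289 to 1541 against 144 to 1185 CPM over the 6, and their part in the Ifng value was not tested.

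Between NK and T cells, 4 of the 7 IL-1 response genes tested fell by edgeR (1 by DESeq2), led by Saa3 (-1.37), Lcn2 (-1.04) and Cxcl2 (-0.99), beside 7.14% of all genes. The part of the neutrophil and macrophage marker genes, lower in NK cells as given above, was not tested. The adaptor gene Myd88 fell (-0.88) by edgeR among 4 signalling genes, of which DESeq2 called 0, the transcription factor gene Tbx21 rose (1.06) among 5 IL-18 response genes, and of 5 inflammasome genes 0 were called by edgeR, 0 by DESeq2 and 0 had an unadjusted p under 0.05. In TIL against blood macrophages by edgeR, Casp4 (-1.70) fell, beside 5.12% of all genes. It was 1 of 6 inflammasome genes that did not pass the filter through 1 group alone. Of 2 such signalling genes edgeR called 0, of which 1 had an unadjusted p under 0.05. DESeq2 called 0 in both lists. Mefv of the first list and Irak4 and Nfkb1 of the second passed only through blood, so their tests are not given, with means of 16.8, 12.9 and 15.8 CPM in TIL and 82.7, 62.0 and 126 CPM in blood macrophages. Of 5 IL-1 response genes edgeR called 0, 2 having an unadjusted p under 0.05, and DESeq2 called 2. These were Cxcl2 (3.68, DESeq2 adjusted p = 0.00209) and Lcn2 (-5.20, DESeq2 adjusted p = 0.0450). The part of the neutrophil marker genes, which were lower in TIL macrophages as given above, was not tested. Ifng was listed at 0 in all 3 blood macrophage sums and had a mean of 93.4 CPM in TIL macrophages. The 9 T cell marker genes, of which the Cd3 chains were at 0 by the gate, summed to 1185, 922 and 1744 CPM in macrophages labelled heart, liver and kidney TIL and to 466, 144 and 840.4 CPM in those of blood, and their part in the Ifng value was not tested. In TIL against blood neutrophils, Lcn2 fell (-3.38, edgeR adjusted p = 0.0319) and the granzyme gene Gzmb rose (1.88, edgeR adjusted p = 0.0284). The prostaglandin synthase gene Ptgs2 passed the filter only through TIL, with a mean of 188 CPM there and 7.57 CPM in blood. In these neutrophils the T cell marker genes summed to 1469 and 1541 CPM in TIL against 289 to 974 CPM in blood, and the neutrophil marker genes were lower in TIL as given above. The part of either in these values was not tested. In T cells between TIL and blood, edgeR called 0 of 9 signalling genes, of which 4 had an unadjusted p under 0.05, and 0 of 6 IL-1 response genes, of which 1 did. DESeq2 called 0 and 1 of these. Of 8 inflammasome genes edgeR and DESeq2 called 0, with 0 at an unadjusted p under 0.05, and of 6 IL-18 response genes edgeR called 0 and DESeq2 1.

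The genes whose levels went most like those of a member were found by Pearson's r of log2(CPM + 1) over the 33 class and library sums, among 9966 genes. These sums share libraries, depth and free RNA, so r is a description only. Il1b was closest to Asprv1 (r = 0.909), Slfn4 (0.891) and Psmb9 (0.878). Il1rn was closest to Cyp4f18 (0.922), Ncf1 (0.878) and Tgtp1 (0.865), and Il1r2 to Lrg1 (0.946), 5430427O19Rik (0.899) and C5ar1 (0.860), the receptor gene for complement C5a. Il18 was closest to Lipa (0.778), which encodes lysosomal acid lipase, Cd81 (0.768) and Bcl2a1d (0.765). Il18rap was closest to Tbc1d14 (0.774), the NK and effector T cell receptor gene Klrg1 (0.740) and Rcsd1 (0.729).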

How the data were processed

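Microwell-seq libraries of 8 samples (PBMC, TIL and, except for heart, PC of 3 graft types) were used. The authors aligned reads to GRCm38 with STAR through Drop-seq tools after bcl2fastq, dropped low-quality barcodes and multi-aligned reads, merged UMIs of a gene 1 edit apart and deposited raw UMI counts per gene and barcode. No column of the tables lacked a sample.

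Cells with at least 500 UMIs were gated by marker genes, and UMIs were summed by class and library where at least 20 cells were found. CPM (UMIs scaled to a common total for each sum) carry exact Poisson intervals and ratios exact Clopper-Pearson intervals at 95%; both cover counting error only, as does the limit of 3 counts behind a count of 0. Classes were compared with edgeR 4.0.16 (R 4.3.3, limma 3.58.1), by its quasi-likelihood test with TMM, filterByExpr and robust dispersions, with the library as a block between classes and no block between TIL and PBMC. P-values were adjusted by Benjamini-Hochberg over all genes tested and called at 0.05. They measure the spread between libraries. Per the study's methods 2 recipients were sampled for each organ, so libraries of the same organ may share recipients and cannot be taken as separate animals. The fits were tested on simulated data. Alternatives were cells of at least 1000 UMIs, at most 10% mitochondrial UMIs, kept overlapping gates, 2 UMIs of the gate genes, no shared barcodes, cells thinned to 500 UMIs, DESeq2 1.42.0, RLE, no filter, TIL with PC, and each library left out. Python 3.11.15, numpy 2.4.6, pandas 2.3.3, scipy 1.17.1 and matplotlib 3.10.9 were used.

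The organ named in the labels was checked as a pairing. The deviations of TIL and PBMC sums of the same organ from their compartment means correlated at 0.221, 0.122 and 0.156 in macrophages and at 0.405, 0.304 and 0.575 in T cells (heart, liver, kidney), and those of other organs at -0.484 to 0.299. The liver pair was hardly favoured: T cells labelled liver TIL correlated at 0.299 and macrophages at 0.0885 with heart PBMC. Each same-organ value was above 0.1, so blocked values stand beside these results.

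Genes named are the 10 members, in each pathway list up to 3 called genes of largest change per fit, and the 3 genes most correlated with Il1b, Il1rn, Il1r2, Il18 and Il18rap among genes with at least 100 UMIs. The members and lists were chosen with earlier results of these data known. Upstream sequences came from RefSeq (GRCm38.p6).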

Additional observations from a re-analysis of the deposited data

Results flagged for a closer look

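Il1rn was lower in TIL than in PBMC for heart and higher for liver, as labelled. In macrophages the level in TIL was 0.348-fold that in PBMC for heart (0.220 to 0.545) and 2.43-fold for liver (1.72 to 3.51). In T cells it was 0.275-fold for heart and 1.80-fold for liver. Il1r2 of neutrophils was 0.285-fold (0.220 to 0.364) for heart and 1.37-fold (1.07 to 1.75) for liver. With 1 library on each side the difference between organs was not tested, and the 2 TIL libraries are those whose hepatocyte and cardiomyocyte genes went against their labels. With these 2 exchanged, chosen after seeing the data, Il1rn of macrophages was 1.05-fold (0.762 to 1.48) that of heart PBMC and 0.803-fold (0.4997 to 1.28) that of liver PBMC, so that both intervals held 1, and Il1rn of T cells was 0.740-fold and 0.670-fold, lower in both pairs. Il1r2 of neutrophils was still lower than in heart PBMC (0.231-fold) and higher than in liver PBMC (1.70-fold).

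Barcodes with under 500 UMIs, which entered no comparison, also held UMIs of the system. They had 15066 UMIs of Il1b, 3926 of Il1r2, 2353 of Il18bp and 1197 of Il1rn, and 486 of Il18r1, 462 of Il18rap, 221 of Il18, 185 of Il1rap and 32 of Il1a. By library, Il1b of these barcodes ranged from 37.3 CPM in kidney PC to 3802 CPM in heart PBMC. In kidney PC and kidney TIL, Il18bp (273 and 206 CPM) lay above Il1b (37.3 and 45.2 CPM). Liver PC had no such barcode.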

How the results depend on the processing

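These counts are the totals of separate fits, and how many of the same genes recur was not counted. The 561 calls between neutrophils and macrophages became 206 among cells of at least 1000 UMIs, 271 after thinning, 363 by DESeq2 and 227 to 520 when a library was left out. Between NK and T cells the 456 calls became 132 at 1000 UMIs, 706 with overlapping gates, 264 with 2 gate UMIs, 186 by DESeq2 and 322 to 424 without a library. For macrophages in TIL against PBMC the 332 calls became 125, 740 and 139 under the first 3 of these settings in that order, 184 after thinning, 186 by DESeq2, 526 without a filter, 650 with the organ as replicate block and 89 to 403 without a library. For neutrophils the 275 calls became 4 at 1000 UMIs, 449 with overlapping gates, 36 with 2 gate UMIs, 172 after thinning, 506 without a filter, 644 with the organ block and 106 to 395 without a library. At 1000 UMIs, with 2 gate UMIs or without a TIL library, only 1 TIL library was left for neutrophils, which is assumed to vary like the others. With 2 organs the neutrophil pairing could not be checked. For T cells the 5 calls became 1 at 1000 UMIs, 3 with 2 gate UMIs, 2 after thinning, 359 by DESeq2, 805 without a filter, 1072 with the block, 254 with PC added and 0 to 173 without a library. The DESeq2 and unfiltered fits use another test or other genes, and fewer libraries entered at 1000 UMIs, except for T cells, and with 2 gate UMIs for macrophages and neutrophils. The cause of the other shifts was not tested. The median log2 ratio of Il1b in neutrophils over macrophages was 1.95, 2.93 with 2 gate UMIs and 1.80 to 2.09 without a library, and the median agonist ratio of neutrophils was 13.5, 16.3 with 2 gate UMIs and 13.2 to 13.9 without a library. Il1r2 between NK and T cells reversed to 0.77 at 1000 UMIs. The sums of Il1r1 and Il1rap, and those over NK cells and kidney macrophages, hold few UMIs. Of the members tested without it, the organ block changed no call but those given in the comparisons of TIL with blood and those of Il18rap in neutrophils and Il1rap in T cells, which passed the filter only through blood.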
